A study of Homo sapiens with 8 samples.

Results

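The genes described here are the RIG-I-like RNA sensors, their adaptor and the ubiquitin ligases that act on the sensors. They were 7 genes taken by symbol: RIGI, IFIH1, DHX58, MAVS, TRIM25, RNF135 and RNF125. All 7 were found in both count tables, out of 32128 symbols the tables share, and RIGI was listed under its older symbol DDX58. Expression was measured by RNA sequencing in the established human lung cancer lines NCI-H1944 and NCI-H647, both labelled wild type. Each line received the solvent DMSO or 100 nM BAY-1217389, which inhibits MPS1, a kinase of the mitotic spindle checkpoint. Exposure lasted 48 h and was followed by 24 h in culture after washing the compound out. Each of the 4 groups (NCI-H1944 with DMSO, NCI-H1944 with inhibitor, NCI-H647 with DMSO and NCI-H647 with inhibitor) held 2 libraries. Nothing in the labels ties the 2 libraries of a group to separate cultures. The spread behind each p-value is therefore that between these libraries, and it may be technical.

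RIG-I and MDA5, the products of RIGI and IFIH1, are cytosolic helicases that bind double-stranded RNA. RIG-I favours short duplexes with a 5' triphosphate end and MDA5 favours long duplexes. Both then engage MAVS, an adaptor on the outer mitochondrial membrane, which activates the kinases TBK1 and IKK-epsilon and the transcription factors IRF3, IRF7 and NF-kB, and so induces interferons. LGP2, the product of DHX58, lacks the signalling domains of the other sensors and modulates them. TRIM25 and RNF135 (Riplet) are ubiquitin ligases linked to RIG-I activation, and RNF125 is a ligase that marks RIG-I and MDA5 for degradation. Several of these genes are themselves induced by interferon, through the factor ISGF3 that binds the interferon-stimulated response element.

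Promoter windows from RefSeq (GRCh38.p14, 250 bases before to 50 after the gene start) were matched for 5 members, RIGI, IFIH1, MAVS, TRIM25 and RNF125. DHX58 and RNF135 had no entry. The letters GAAANNGAAA and GAAANGAAA, spacings of the repeated GAAA core of interferon response elements, were searched on both strands. They are shown because the matches fell in 3 members, each of which rose in both lines. Since the display was chosen with these rises known, and DHX58, which also rose, had no window, a link between motif and response was not tested. Of the windows without a match only that of MAVS is printed. Capitals mark the matches. Distances are from the RefSeq start, which for RIGI, TRIM25 and MAVS is not the start given in the NCI-H647 table (32526196 against 32526208 for RIGI, 56914049 against 56914080 for TRIM25 and 3846834 against 3846799 for MAVS). RIGI held GAAANGAAA once, 203 bases before the RefSeq start and 191 before that of the table, and IFIH1 held GAAANNGAAA at 3 places, the nearest 21 bases before the start. Of those in IFIH1, a pair on the opposite strand overlapped each other, starting 159 and 153 bases before the gene start. TRIM25 held GAAANGAAA on the opposite strand, beginning 3 bases before the RefSeq start and so inside the span the table gives. MAVS and RNF125 held neither. Among all 35116 windows of the same length 3.57% held GAAANNGAAA, 3.12% held GAAANGAAA and 6.40% held either. The palindrome TTCNNNGAA, bound by STAT dimers, was in none of the 5 windows and in 7.66% of all. A match is a description of letters and not a test of binding. The printed windows stop before the outermost of these starts. The first sequence is chr9:32526209-32526446 on the minus strand, the next chr2:162318685-162318934 on the minus strand, then a 30-base site at chr17:56914033-56914062 on the minus strand, and chr20:3846584-3846798 on the plus strand.
RIGI: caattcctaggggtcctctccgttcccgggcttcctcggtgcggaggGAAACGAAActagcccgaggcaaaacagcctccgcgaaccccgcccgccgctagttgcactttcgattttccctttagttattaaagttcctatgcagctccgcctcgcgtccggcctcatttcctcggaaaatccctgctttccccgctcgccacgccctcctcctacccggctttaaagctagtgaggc
IFIH1: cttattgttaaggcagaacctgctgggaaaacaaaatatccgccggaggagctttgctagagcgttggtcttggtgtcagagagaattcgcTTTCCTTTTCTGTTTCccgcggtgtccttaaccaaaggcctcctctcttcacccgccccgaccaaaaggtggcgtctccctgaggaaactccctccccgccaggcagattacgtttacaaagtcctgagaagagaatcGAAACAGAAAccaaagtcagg
TRIM25: tcgagctaggTTTCGTTTCctcggcggcct
MAVS: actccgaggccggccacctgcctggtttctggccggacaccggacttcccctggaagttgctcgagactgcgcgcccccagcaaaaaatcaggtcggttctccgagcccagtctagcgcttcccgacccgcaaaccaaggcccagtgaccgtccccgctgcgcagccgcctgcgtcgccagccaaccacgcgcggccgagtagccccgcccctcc

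Libraries held 38904473 to 43661342 counts in NCI-H1944 and 13358514 to 19550859 in NCI-H647, so low genes were less precise in the second line. The keratins KRT7, KRT8 and KRT18, with KRT19, EPCAM and CDH1, summed to 4132 and 4160 CPM after DMSO and 4780 and 4919 CPM after BAY-1217389 in NCI-H1944, where CPM is the usual scaling of counts to the library total. In NCI-H647 they summed to 879 and 861 CPM after DMSO and 650 and 644 CPM after the inhibitor. Most of these sums was KRT7, KRT8 and KRT18. EPCAM was low in both lines, with 75 to 129 counts in an NCI-H1944 library and 60 to 94 in an NCI-H647 library. KRT19 was at 0 in every NCI-H1944 library, and CDH1 had 3 to 9 counts in an NCI-H647 library. Leukocyte markers were few. PTPRC, the pan-leukocyte phosphatase CD45, was at 0 in every NCI-H1944 library and had 1 to 8 counts in an NCI-H647 library, and CD3E, a T cell receptor subunit, had 0 to 2 counts in a library of either line. CD14, a monocyte marker, had 58 and 61 counts with DMSO and 71 and 90 with the inhibitor in NCI-H1944, and 11 and 12 against 30 and 31 in NCI-H647. LYZ (lysozyme) had 0 and 5 counts against 17 and 33 in NCI-H1944 and at most 1 count in NCI-H647. Fibroblast, endothelial and erythroid sums in NCI-H1944 were at most 4.68, 0.797 and 0.559 CPM after DMSO and at least 6.37, 1.90 and 1.28 CPM in the treated libraries, and in NCI-H647 no such sum was above 32.1 CPM. Their part in the results was not tested. TTK, which encodes MPS1, fell by 0.71 ± 0.08 in NCI-H1944 and by 0.72 ± 0.04 in NCI-H647 on the log2 scale. TTK was measured after the washout, and its mRNA does not report the activity of the kinase.

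In NCI-H1944, 4 of the 7 genes rose after the inhibitor (RIGI, IFIH1, DHX58 and TRIM25), MAVS fell, and RNF135 and RNF125 did not pass the test. In NCI-H647 the same 4 rose and MAVS fell, RNF125 fell by a call that most alternatives did not keep, and RNF135 did not pass. Calls were made at an adjusted p under 0.05 in edgeR's quasi-likelihood test over all genes, in which 26.0% of 16738 tested genes passed in NCI-H1944 (13.6% higher and 12.4% lower) and 54.4% of 15049 passed in NCI-H647 (27.3% higher and 27.0% lower). At a change of 2-fold or more, 4 of 7 members were higher in NCI-H1944, beside 3.11% of all genes, and 3 of 7 in NCI-H647, beside 5.60%. No member was 2-fold lower in either line, beside 0.227% and 2.19%. All 7 members passed the filter on low counts in both lines. The median log2 fold change of the members was 1.12 in NCI-H1944 and 0.84 in NCI-H647, beside 0.0011 and 0.0054 over all tested genes. Levels below are CPM, and changes are log2 fold changes of the inhibitor over DMSO ± the standard error of the fit, with n = 2 libraries per group.

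**Figure D1:**
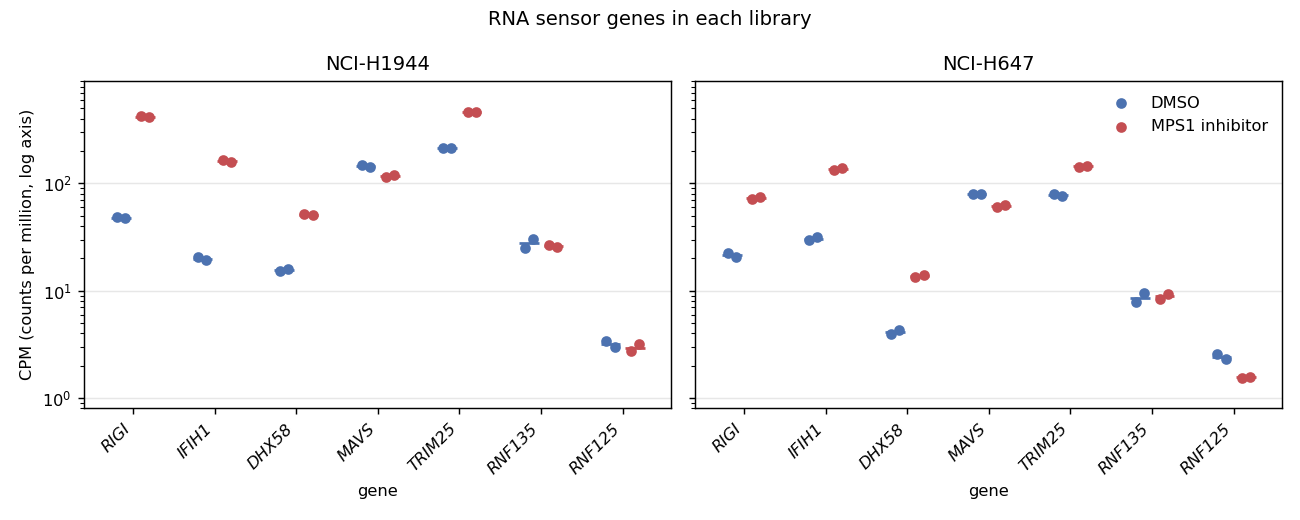
CPM of each member in each library on a log axis, with 1 point per library and a short line at the group mean, for DMSO and the MPS1 inhibitor in the 2 lines. The 4 genes RIGI, IFIH1, DHX58 and TRIM25 lie higher in both treated libraries of each line, and MAVS lies lower.

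RIGI (NCBI gene 23586, chr9:32455302-32526208, GRCh38) had 48.2 and 48.0 CPM in the NCI-H1944 libraries with DMSO and 427.7 and 412.5 CPM in those with the inhibitor. Both treated libraries were far above both controls, and replicates lay close together. The change was 3.14 ± 0.04 (adjusted p = 6.53e-19), an 8.81-fold rise that ranked 106th from the top among the 16738 tested genes. In NCI-H647 RIGI had 22.6 and 20.6 CPM with DMSO and 71.9 and 75.5 CPM with the inhibitor. Both treated libraries again stood above both controls, by 1.72 ± 0.06 (adjusted p = 2.38e-12, 3.29-fold, rank 317 of 15049). Since RNA came from whole cultures, more RNA per cell and a larger share of cells with the transcript cannot be told apart.

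IFIH1 (NCBI gene 64135, chr2:162267074-162318684) had 20.5 and 19.3 CPM with DMSO and 165.7 and 158.6 CPM with the inhibitor in NCI-H1944. The rise of 3.04 ± 0.05 (adjusted p = 3.59e-17) was 8.22-fold and ranked 113th. In NCI-H647 the values were 29.5 and 31.4 CPM with DMSO and 134.4 and 138.6 CPM with the inhibitor, a rise of 2.12 ± 0.06 (adjusted p = 1.65e-13, 4.34-fold). The MDA5 gene thus rose in both lines with no overlap of the groups, and in NCI-H647 it had the largest change of the 7 members.

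DHX58 (NCBI gene 79132, chr17:42101404-42112714), the gene of LGP2, was the lowest of the 3 sensor genes by CPM. In NCI-H1944 it had 15.2 and 15.8 CPM with DMSO and 51.4 and 50.7 CPM with the inhibitor, a change of 1.73 ± 0.06 (adjusted p = 1.72e-12, 3.32-fold). In NCI-H647 it had 3.94 and 4.35 CPM against 13.6 and 14.0 CPM, a change of 1.69 ± 0.14 (adjusted p = 6.15e-08, 3.22-fold). Its NCI-H647 values rest on 75 to 187 counts per library. DHX58 changed by nearly the same factor in the lines. Its CPM differed 3.74-fold between their controls, where line and library preparation cannot be told apart.

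The make-up of the sensor transcripts differed between the libraries of the lines, which also differed in kit and count table, so line and preparation cannot be told apart. The annotation behind the counts is not given, so the per-base values are approximate. Per exonic base (union of exons in GENCODE release 29), RIGI held 50.9% and 51.0% of the summed counts of the 3 sensors in the NCI-H1944 controls and 62.5% and 62.4% in the treated libraries. In NCI-H647 IFIH1 held the largest share, 51.1% and 53.8% in the controls and 59.5% and 59.2% in the treated libraries. DHX58 went from 26.8% and 27.9% to 12.5% and 12.8% in NCI-H1944, and from 11.0% and 12.0% to 9.67% and 9.62% in NCI-H647. The ratio of RIGI to IFIH1 counts, which no scaling between libraries can alter, was 2.35 and 2.49 in the NCI-H1944 controls and 2.58 and 2.60 in the treated libraries. In NCI-H647 it was 0.767 and 0.656 with DMSO and 0.535 and 0.545 with the inhibitor. In both lines the gene with the larger share in the controls, RIGI in NCI-H1944 and IFIH1 in NCI-H647, held a larger share in both treated libraries than in both controls. In NCI-H1944 that gain was not particular to the leading gene. There IFIH1, the smallest share in the controls (22.4% and 21.1%), also gained (25.0% and 24.8%), while DHX58 lost share. In NCI-H647 IFIH1 alone gained, and RIGI went from 37.9% and 34.2% to 30.8% and 31.2%. These shares are descriptions, since an exact permutation test of 2 against 2 libraries cannot give a two-sided p below 0.333.

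**Figure D2:**
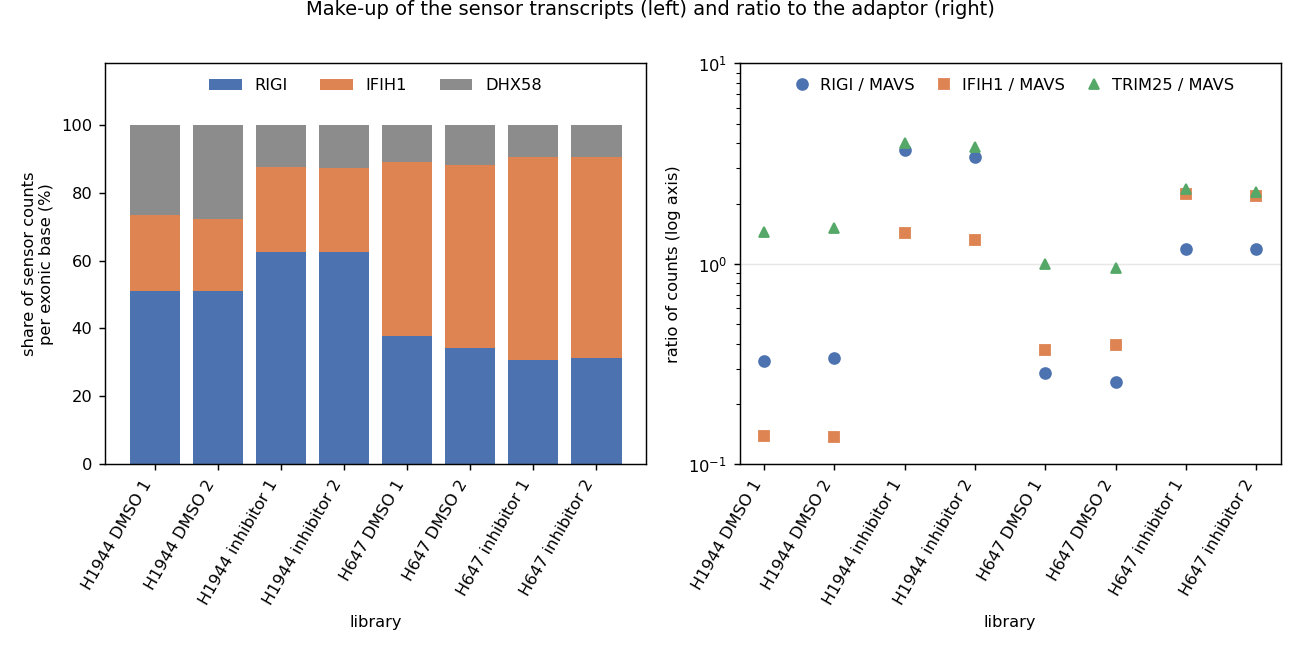
Left, the share of RIGI, IFIH1 and DHX58 in their summed counts per exonic base (percent) in each of the 8 libraries. Right, the ratio of RIGI, IFIH1 and TRIM25 counts to MAVS counts in each library on a log axis. RIGI is the largest share in the 4 NCI-H1944 libraries and IFIH1 in the 4 NCI-H647 libraries, and the 3 ratios to MAVS are higher in every treated library than in either control of its line.

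MAVS (NCBI gene 57506, chr20:3846799-3876123), the shared adaptor, moved the other way. It had 147.9 and 141.3 CPM with DMSO and 115.9 and 120.3 CPM with the inhibitor in NCI-H1944, a change of -0.28 ± 0.04 (adjusted p = 5.05e-05). In NCI-H647 it had 79.5 and 79.6 CPM with DMSO and 60.5 and 63.6 CPM with the inhibitor, a change of -0.41 ± 0.05 (adjusted p = 8.99e-06). The falls were 1.21-fold and 1.33-fold, and the treated libraries lay below both controls in each line. The counts of the 3 sensors summed to 0.568 and 0.588 of the MAVS counts in the NCI-H1944 controls and to 5.56 and 5.17 times them after the inhibitor. In NCI-H647 this ratio was 0.704 and 0.707 with DMSO and 3.64 and 3.59 with the inhibitor. Summed sensor counts were thus fewer than adaptor counts in all 4 control libraries and more numerous in all 4 treated ones, but counts are not levels per length. MAVS has the longest exon union of the members, 11771 bases against 2617 to 4353 for the sensors, and per exonic base the summed sensors were above MAVS already in the controls. The per-base ratio of the 3 sensors to MAVS was 1.73 and 1.80 in the NCI-H1944 controls and 16.0 and 14.9 in the treated libraries, and 2.03 and 2.05 against 10.4 and 10.3 in NCI-H647. RIGI alone had 11.0 ± 0.0390 CPM per kb and MAVS 12.3 ± 0.396 CPM per kb (SD) in the NCI-H1944 controls, and 96.5 ± 2.47 against 10.0 ± 0.262 CPM per kb after the inhibitor.

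TRIM25 (NCBI gene 7706, chr17:56836387-56914080) was the most abundant of the 3 ligase genes, also per exonic base, and the only one of them that rose. It had 212.3 and 214.4 CPM with DMSO and 463.8 and 458.5 CPM with the inhibitor in NCI-H1944, a change of 1.12 ± 0.03 (adjusted p = 2.05e-14, 2.18-fold). In NCI-H647 it had 79.7 and 75.7 CPM against 143.7 and 144.8 CPM, a change of 0.84 ± 0.05 (adjusted p = 1.48e-09, 1.79-fold). The annotated span of TRIM25 overlaps that of DGKE on the opposite strand over 33181 bases, and the strand setting of the counting is not given in the sources used here. DGKE had 48 to 110 counts in an NCI-H1944 library and 320 to 426 in an NCI-H647 library, against 8343 to 20250 and 1305 to 1949 for TRIM25.

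RNF135 (NCBI gene 84282, chr17:30970984-30999911), the gene of Riplet, had 25.0 and 30.5 CPM with DMSO and 26.9 and 25.8 CPM with the inhibitor in NCI-H1944. In NCI-H647 it had 7.78 and 9.51 CPM against 8.41 and 9.36 CPM. The groups overlapped in both lines. Its change was -0.06 with a 95% interval from -0.24 to 0.11 in NCI-H1944 (adjusted p = 0.650) and -0.0026 with an interval from -0.30 to 0.30 in NCI-H647 (adjusted p = 0.990). These intervals do not show that the gene was unaffected.

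RNF125 (NCBI gene 54941, chr18:32018825-32073219) had the lowest CPM of the members in each group. Its annotated span of 54395 bases overlaps that of AC011825.3, a processed transcript on the same strand, over 54391 bases. Whether reads were lost or shared through this overlap was not tested, so a low count need not mean low expression. In NCI-H1944 RNF125 had 3.43 and 2.98 CPM with DMSO and 2.73 and 3.18 CPM with the inhibitor, and the groups overlapped (change -0.11, 95% interval -0.51 to 0.30, adjusted p = 0.743). In NCI-H647 it had 50 and 40 counts with DMSO and 21 and 21 with the inhibitor, or 2.56 and 2.32 against 1.55 and 1.57 CPM. That change was -0.69 ± 0.28 (adjusted p = 0.0474). It was not called without the first (adjusted p = 0.211) or second DMSO library (0.0885), without the first (0.146) or second treated library (0.130), by DESeq2 (0.361) or with the replicate number as a block (0.0657). Over its 10 alternatives the adjusted p ran from 0.0447 to 0.361, and 3 kept the call.

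**Figure D3:**
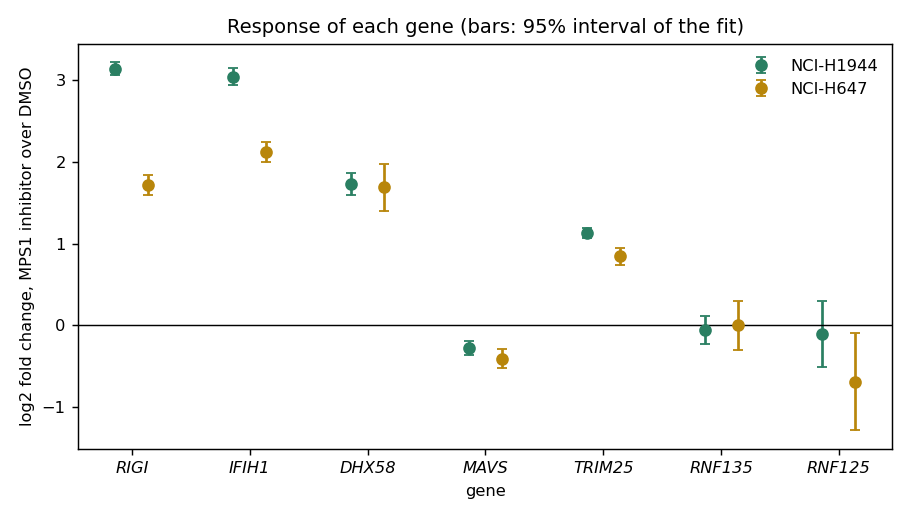
Log2 fold change of each member, inhibitor over DMSO, in NCI-H1944 and NCI-H647, with bars for the 95% interval of the fit. The intervals of RIGI and IFIH1 in the 2 lines are apart from each other, those of DHX58 overlap, and both MAVS intervals lie below 0.

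The size of the response was compared between the lines in a model of all 8 libraries together, through its interaction of line and treatment, in which 40.1% of 12887 tested genes passed (17.4% with a higher and 22.7% with a lower response in NCI-H647). Of the 7 members 3 passed (42.9%, near the share over all genes), each with the smaller rise in NCI-H647. RIGI rose less in NCI-H647 by 1.44 ± 0.07 on the log2 scale (difference NCI-H647 minus NCI-H1944 -1.44, adjusted p = 5.10e-13), a 2.72-fold smaller response. RIGI was the member that differed by 2-fold or more, beside 2.62% of genes with so much lower and 2.30% with so much higher a response in NCI-H647. IFIH1 differed by -0.94 ± 0.07 (adjusted p = 9.76e-10) and TRIM25 by -0.30 ± 0.05 (adjusted p = 3.92e-05). DHX58 did not pass, with a difference of -0.06 and a 95% interval from -0.36 to 0.23 (adjusted p = 0.763). MAVS missed the threshold with -0.15 (95% interval -0.28 to -0.02, adjusted p = 0.0592), and was called without the first NCI-H1944 DMSO library (0.0482), the first NCI-H1944 treated library (0.0397) or the second NCI-H647 treated library (0.0481). Its adjusted p ran from 0.0397 to 0.423 over 13 alternatives. RNF135 (0.04, interval -0.31 to 0.38) and RNF125 (-0.61, interval -1.34 to 0.12) did not pass either.

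Levels between the lines are given as values only, because the lines were prepared with different kits (poly(A) selection in NCI-H1944 and ribosomal RNA depletion in NCI-H647) and counted in separate tables, so that line and preparation cannot be told apart. The share of all genes higher in NCI-H1944 was not computed, so the orders below are not read as a trait of the members. By CPM, RIGI, DHX58, MAVS, TRIM25, RNF135 and RNF125 were higher in NCI-H1944 than in NCI-H647 in the controls, from 1.31-fold for RNF125 to 3.74-fold for DHX58. IFIH1 was the exception, at 30.4 ± 1.35 CPM in NCI-H647 and 19.9 ± 0.876 CPM (SD) in NCI-H1944. After the inhibitor IFIH1 was 162.1 ± 5.02 CPM in NCI-H1944 and 136.5 ± 2.99 CPM in NCI-H647, so that its order between the lines turned, with no overlap of the libraries at either point. Across the 4 groups IFIH1 thus ran from the NCI-H1944 controls through the NCI-H647 controls and the treated NCI-H647 libraries to the treated NCI-H1944 libraries. RIGI ran from the NCI-H647 controls (21.6 ± 1.43 CPM) through the NCI-H1944 controls (48.1 ± 0.170) and the treated NCI-H647 libraries (73.7 ± 2.58) to the treated NCI-H1944 libraries (420.1 ± 10.7). For DHX58 the treated NCI-H647 libraries (13.8 ± 0.306 CPM) stayed below the NCI-H1944 controls (15.5 ± 0.391 CPM). MAVS, TRIM25 and RNF135 were higher in both NCI-H1944 groups than in either NCI-H647 group. The 2 groups of RNF135 within a line, and those of RNF125 within NCI-H1944, are the neighbours in these orders whose libraries overlapped.

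The other genes of the pathway were taken from 3 lists of 48 genes in all, chosen with earlier results of these data known. In NCI-H1944 16 of 48 were higher and 7 lower (47.9% called), beside 26.0% called over all genes (13.6% higher and 12.4% lower). In NCI-H647 20 of 47 tested were higher and 9 lower (61.7% called), beside 54.4% (27.3% higher and 27.0% lower). The called share of the lists in NCI-H647 was near that over all genes. The list medians lay between -0.03 and 0.24 on the log2 scale, so most pathway genes moved much less than the sensors. Of 13 sensor cofactors 5 rose and 4 fell in each line. DDX60, a helicase linked to RIG-I signalling, rose by 1.85 ± 0.04 in NCI-H1944 and by 1.46 ± 0.05 in NCI-H647, and ZNFX1, a helicase that binds viral RNA, by 1.61 ± 0.04 and 1.12 ± 0.05. TRIM14, which associates with MAVS at mitochondria, rose by 1.92 ± 0.04 in NCI-H1944 and by 0.42 ± 0.05 in NCI-H647. ZC3HAV1, the antiviral zinc-finger protein ZAP, rose by 1.27 ± 0.03 and 0.64 ± 0.04. PPP1CC, a catalytic subunit of protein phosphatase 1, which dephosphorylates the sensors, fell by 0.38 ± 0.04 in NCI-H647 and by 0.17 ± 0.04 in NCI-H1944. The NCI-H1944 call of PPP1CC was lost in 3 of 10 alternatives, without the first DMSO library (adjusted p = 0.0570), without the second treated library (0.0781) and when low genes were not filtered out (0.132).

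Downstream of MAVS 6 of 17 genes rose and none fell in NCI-H1944, and 9 rose and 2 fell in NCI-H647. Over all genes 13.6% rose and 12.4% fell in NCI-H1944, and 27.3% rose and 27.0% fell in NCI-H647. IRF7, the inducible interferon regulatory factor, had 22.6 and 25.2 CPM with DMSO and 115.6 and 117.7 CPM with the inhibitor in NCI-H1944, and 4.45 and 5.16 against 28.9 and 24.6 CPM in NCI-H647. The groups were apart in both lines, with changes of 2.30 ± 0.05 and 2.43 ± 0.12. IRF3, the constitutive factor, did not pass in either line, at 0.07 ± 0.05 and 0.11 ± 0.07. IKBKE (IKK-epsilon) rose by 0.81 ± 0.11 in NCI-H1944 and had 0.14 ± 0.10 in NCI-H647 (adjusted p = 0.264). TRADD, a death-domain adaptor, rose by 0.70 ± 0.11 in NCI-H1944 and had 0.24 ± 0.18 in NCI-H647 (adjusted p = 0.301). RELA, a subunit of NF-kB, rose by 0.20 ± 0.04 and 0.69 ± 0.06. TANK, a scaffold of the TBK1 kinase complex, rose by 0.39 ± 0.05 in NCI-H647 and had 0.09 ± 0.05 in NCI-H1944 (adjusted p = 0.195). TRAF2, a ubiquitin ligase bound by MAVS, rose by 0.57 ± 0.08 in NCI-H647. In NCI-H1944 TRAF2 was called at 0.15 ± 0.05 (adjusted p = 0.0411), but not without the first (0.110) or second DMSO library (0.152) or the second treated library (0.267), and 4 of 10 alternatives kept the call.

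Among negative regulators 5 of 18 rose and 3 fell in NCI-H1944, and 6 of 17 rose and 3 fell in NCI-H647. Over all genes 26.0% were called in NCI-H1944 and 54.4% in NCI-H647, and the NCI-H647 count of this list was near that share. NLRC5, also known as an activator of class I antigen presentation genes, rose by 2.28 ± 0.06 in NCI-H1944 and by 0.40 ± 0.11 in NCI-H647. TRIM38, a ligase with reported roles on RNA and DNA sensors, rose by 1.74 ± 0.05 and 0.79 ± 0.05. CYLD, a deubiquitinase that removes chains from RIG-I, rose by 0.54 ± 0.06 and 0.51 ± 0.06. PCBP2, which recruits a ligase to MAVS, fell by 0.24 ± 0.02 in NCI-H1944 and by 0.44 ± 0.03 in NCI-H647. DAPK1, a kinase, rose by 0.43 ± 0.03 in NCI-H1944 and did not pass the count filter in NCI-H647. TKFC, which binds MDA5, fell by 0.66 ± 0.12 in NCI-H647 and had -0.06 ± 0.05 in NCI-H1944 (adjusted p = 0.401). The NLRC5 call in NCI-H647 was not kept by DESeq2 (adjusted p = 0.214), the highest of its 10 alternatives, the lowest being 0.00292.

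**Figure D4:**
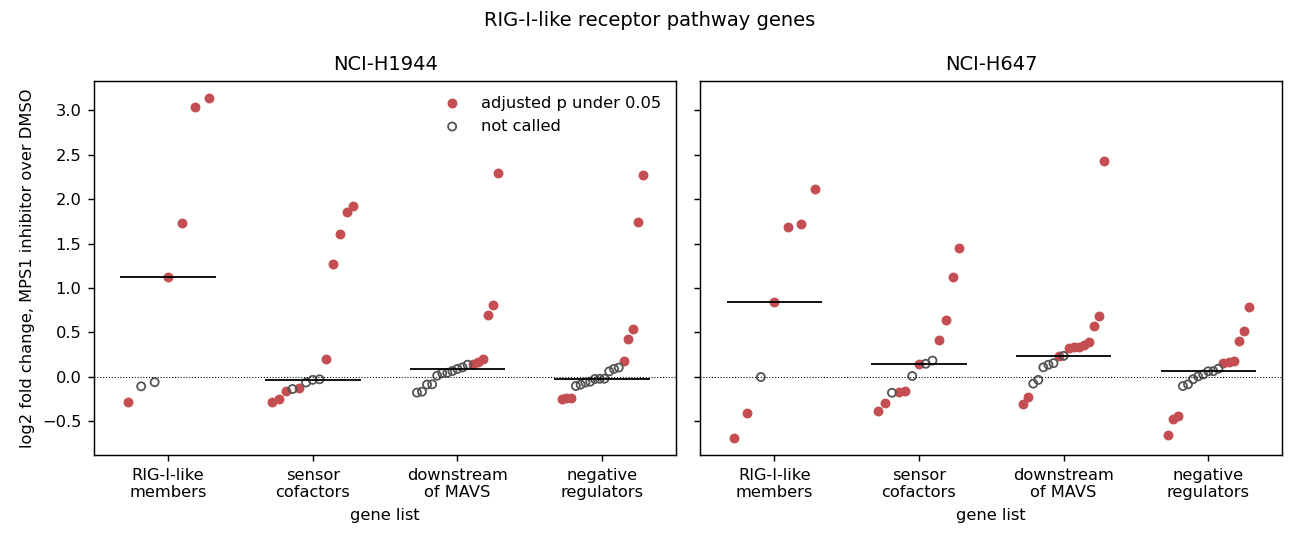
Log2 fold change of the members and of the tested genes of the 3 pathway lists in each line, filled where the adjusted p was under 0.05, with a line at the median of each list. Most genes of the 3 lists lie near 0 in both lines, with a small number above 1, while 4 of the 7 members in NCI-H1944 lie above 1.

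Of 6 output genes of the pathway all 6 were called higher in NCI-H1944, beside 13.6% of all genes. In NCI-H647 2 could be tested, the chemokine genes CXCL10 and CCL5, and both were called higher, beside 27.3%. In NCI-H1944 all but CCL5 had at most 9 counts in a control library and passed the count filter through the treated libraries alone. The same held for CXCL10 in NCI-H647, with 1 and 2 counts in the controls. For these genes a rise was the only call possible. The interferon genes among them were low. IFNB1, the type I interferon, had 0 counts in both NCI-H1944 controls and 26 and 22 counts after the inhibitor, and IFNL1, a type III interferon, had 5 and 2 against 241 and 309. In NCI-H647 IFNB1 had 0 and 0 counts with DMSO and 1 and 2 in the treated libraries, and IFNL1 had 0 and 0 against 1 and 0, so neither passed the count filter. The treated NCI-H647 libraries held 13563037 and 13358514 counts and those of NCI-H1944 43661342 and 43067647. At the level of the treated NCI-H1944 libraries (5.52 and 7.18 CPM), IFNL1 would have given 73.7 to 97.3 counts in a treated NCI-H647 library, where it had 1 and 0. IFNB1 at its NCI-H1944 level would have given 6.82 to 8.08 counts, near the minimum of the filter, so for IFNB1 the depth limits what can be seen. The difference between the lines in these genes was not tested.

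The genes with the most similar pattern to a member were those with the smallest Euclidean distance over the 8 libraries, in log2 CPM centred on the control mean of each line, among 10888 genes. For RIGI these were EPSTI1 (distance 0.294), SAMHD1 (0.385) and EGR1 (0.405). EPSTI1 rose by 3.06 ± 0.08 in NCI-H1944 and by 1.81 ± 0.07 in NCI-H647. SAMHD1, a dNTP hydrolase, rose by 3.12 ± 0.05 and 1.99 ± 0.06, and EGR1, an immediate-early transcription factor, by 3.05 ± 0.17 and 1.89 ± 0.06. For IFIH1 they were SAMHD1 (0.249), BATF2 (0.330) and HELZ2 (0.382). For DHX58 they were CXCL1 (0.326), a neutrophil chemokine, DDX60 (0.378) and STAT2 (0.411), a subunit of ISGF3. CXCL1 rose by 1.71 ± 0.11 and 1.65 ± 0.03. For MAVS they were PRKAG1 (0.0732), HTRA1 (0.0772) and RPL10 (0.0778), which fell by 0.29 ± 0.04, 0.33 ± 0.06 and 0.28 ± 0.02 in NCI-H1944. The libraries share their treatment, so these distances describe likeness of values only.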

How the data were processed

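RNA was measured by sequencing in 8 libraries. The authors deposited raw read counts per gene, as whole numbers, in 1 table per line. STAR, HISAT2, featureCounts, StringTie, cutadapt, Trim Galore and Trimmomatic, with GRCh38, are listed in the submitters' processing notes. Which tool made which table, its version, the strand setting and the annotation release: not given in the sources used here. Per the labels' protocols, a stranded poly(A) kit was used for NCI-H1944, and ribosomal RNA depletion with another stranded kit for NCI-H647. Groups and columns were matched to samples by title.

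Each line was fitted alone in R 4.3.3 with edgeR 4.0.16. Genes passed filterByExpr (minimum count 10, minimum total 15), were scaled by TMM factors and compared by the quasi-likelihood F test, with Benjamini-Hochberg adjustment over all tested genes and a threshold of 0.05. The standard error was the log2 fold change over the square root of F. The interaction came from a joint fit of symbols that passed the filter in both lines. A repeated symbol was represented by its row with the highest total. Tests were tested on simulated data. Alternatives were RLE factors, DESeq2 1.42.0, no filter, a replicate block, each library left out and a joint fit. Library size alone as scaling was added after seeing the data. Replicates differed beyond counting noise (chi-square per degree of freedom 1.98 to 3.93). Log2 CPM for likeness used 0.5 counts added, and a mean log2 CPM of at least 1 in each line.

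Named genes were the 7 members, TTK, IFNB1 and IFNL1, up to 4 genes with the smallest adjusted p from each of 3 pathway lists per line, and the 3 genes most like each of RIGI, IFIH1, DHX58 and MAVS. IRF3, DGKE, CXCL10, CCL5 and the markers printed lie outside that rule and were added with their values known. The members and lists were chosen with earlier results of these data known. A further leukocyte marker is not reported here.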

Additional observations from a re-analysis of the deposited data

Results flagged for a closer look

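The response to the inhibitor differed between the lines, by the interaction test of edgeR's quasi-likelihood fit, for 3 of 7 members and for 13 of the 16 other named pathway genes that could be tested. Those 16 were named for a small adjusted p within a line. Over all 47 tested genes of the 3 pathway lists 20 passed (42.6%), 6 with a higher and 14 with a lower response in NCI-H647. The differences are given as the log2 response in NCI-H647 minus that in NCI-H1944. They were -1.44 for RIGI, -0.94 for IFIH1 and -0.30 for TRIM25. Sensor cofactors differed by -1.53 for TRIM14, -0.65 for ZC3HAV1, -0.51 for ZNFX1, -0.42 for DDX60 and -0.24 for PPP1CC. Downstream of MAVS the differences were -0.70 for IKBKE, 0.47 for RELA, 0.40 for TRAF2 and 0.28 for TANK. Negative regulators differed by -1.90 for NLRC5, -0.97 for TRIM38, -0.62 for TKFC and -0.23 for PCBP2. The median over all 12887 genes was -0.0364, and 40.1% of them passed, a share near that of the members and of the lists. Line and library preparation cannot be told apart in these differences. Groups of 2 libraries are too small to single out 1 library by its distance from the others.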

How the results depend on the processing

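The calls of RIGI, IFIH1, DHX58, MAVS and TRIM25 kept their direction and side of the threshold in all 10 alternatives in each line, and the interaction calls of RIGI, IFIH1 and TRIM25 in all 13. The count of genes called in NCI-H1944 fell from 4346 to 2325 with no low-count filter, and that in NCI-H647 from 8184 to 4712 with DESeq2. The causes were not tested. Without 1 library each, 3335 to 3732 genes were called in NCI-H1944 and 6922 to 7395 in NCI-H647, with 5 members called in each line, and 3 or 4 by the interaction. Where that left 1 library in a group, it was assumed to vary like the others. With the replicate number as a block, 4817 and 8434 genes, 5 and 5 members and 3 interaction members were called. Deviations of same-numbered libraries correlated at 0.0439 and 0.0026 across genes, so no large shared shift was seen. This cannot tell whether same-numbered libraries came from 1 culture or day, which the labels do not say. Of 819 alternative fold changes of named genes, 797 kept their call, 17 lost it and 5 gained it. Of 56 CPM levels set under 2 other scalings, 17 moved by more than 1 SD, and the order of IFIH1 and DHX58 between the groups was as reported under each. Precision is limited by 2 libraries per group and by the lower NCI-H647 depth, most for RNF125.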
